A study of Homo sapiens with 8 samples.

Results

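Kinetochore, spindle checkpoint and mitotic exit genes were followed in MDA-MB-231 cells that express oestrogen receptor beta (ERβ). They comprised 45 genes taken by symbol from a list of mitotic functions, chosen with earlier results of these data known. Every symbol matched a gene row among the 31412 of the array data. MDA-MB-231 is a triple-negative breast cancer line, and the derivative used here makes ERβ, the product of ESR2, when doxycycline is added. All cultures received 100 ng/ml doxycycline in charcoal-stripped serum and were then kept for 5 days with ethanol, the vehicle, or with 1 nM 17-beta estradiol. There were 3 cultures per treatment, and a second RNA sample of 1 culture in each was also hybridised, which gave 8 Illumina arrays. Arrays of a culture were averaged, so that n = 3 throughout. No group went without doxycycline, so that effects needing ERβ cannot be told apart from other effects of estradiol, and the sources used here do not give whether the line is a single clone. Nothing says that the replicate cultures were begun on separate days or from separate stocks, so that p-values speak only to the spread among these 6 cultures, which may be technical.

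At mitosis each chromatid builds a kinetochore on its centromere and is captured by spindle microtubules. Kinetochores without microtubules feed the spindle checkpoint, which holds back CDC20 and the anaphase-promoting complex, the ubiquitin ligase that opens anaphase by marking securin and cyclin B for destruction. Transcripts of most of these genes are made late in the cell cycle, when the MuvB core with B-MYB and FOXM1 acts on their promoters, and are shut off in resting cells by the related DREAM complex. Both act through a short promoter element called CHR, the cell cycle genes homology region, often with nearby CCAAT boxes bound by NF-Y. In bulk RNA of a culture, fewer cells in late cell cycle phases and less RNA per such cell cannot be told apart.

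The promoters show what these genes share beyond their names. RefSeq promoters of GRCh38.p14, each from 250 bases before to 50 bases after a transcription start, were at hand for 37 of the 45 genes, AURKA, BUB3, TTK, CENPM, BIRC5, UBE2C, TPX2 and FOXM1 being the others. The CHR core TTTGAA, read on both strands, occurred in 29 of the 37 (78.4%), against 18.2% of the 27305 genes in the same table and 12.8% of those with a tested array row. Within 50 bases of a start it occurred in 24 of the 37 (64.9%), against 5.77% of all genes. CCAAT, on either strand, occurred in 28 of the 37 (75.7%, against 39.7% of all genes), and CCAAT together with TTTGAA or its variant TTTAAA in 23 (62.2%, against 11.2%). Sites for E2F, searched as TTTCCCGC, TTTGGCGC, TTTCGCGC and TTTGCCGC, were in 2 (5.41%, against 3.99% of all genes and 6.5% of those with a tested row). The palindromic oestrogen response element, searched as its consensus with 3 free central bases, was in 0, against 0.0732% of all genes. That share is so low that 0 among 37 genes cannot set them apart from other genes. These matches describe letters in a window and not bound sites. For each role below that has such a member, the stretch of 140 bases ending just before the start is shown for the gene with the largest fall among those with TTTGAA in the last 80 bases and CCAAT in the stretch. The sequences read 5′ to 3′ on the gene's strand, and capitals mark TTTGAA and CCAAT or their reverse complements, TTCAAA and ATTGG. They lie at chr16:23678749-23678888 (+) for PLK1, chr1:43358841-43358980 (+) for CDC20, chr2:26785916-26786055 (+) for CENPA, chr1:37692376-37692515 (+) for CDCA8, chr5:163460492-163460631 (+) for HMMR and chr10:128126424-128126563 (-) for MKI67.
PLK1: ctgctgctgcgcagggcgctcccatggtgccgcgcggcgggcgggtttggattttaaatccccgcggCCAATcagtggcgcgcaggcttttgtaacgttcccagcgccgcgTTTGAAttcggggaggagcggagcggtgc
CDC20: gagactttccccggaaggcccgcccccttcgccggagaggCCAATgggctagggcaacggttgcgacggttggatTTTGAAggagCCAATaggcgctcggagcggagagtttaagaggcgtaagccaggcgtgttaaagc
CENPA: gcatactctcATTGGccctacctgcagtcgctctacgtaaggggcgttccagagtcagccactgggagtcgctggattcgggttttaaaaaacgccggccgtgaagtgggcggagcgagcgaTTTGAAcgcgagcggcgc
CDCA8: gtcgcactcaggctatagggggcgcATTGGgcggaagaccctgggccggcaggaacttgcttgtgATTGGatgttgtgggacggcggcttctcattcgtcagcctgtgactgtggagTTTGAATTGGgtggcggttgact
HMMR: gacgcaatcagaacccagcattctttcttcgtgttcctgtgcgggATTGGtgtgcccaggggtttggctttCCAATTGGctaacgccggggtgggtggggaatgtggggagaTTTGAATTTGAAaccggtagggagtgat
MKI67: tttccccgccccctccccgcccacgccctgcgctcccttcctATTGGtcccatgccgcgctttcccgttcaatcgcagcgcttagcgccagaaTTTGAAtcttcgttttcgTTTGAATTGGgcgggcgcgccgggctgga
In PLK1 the CHR core begins 29 bases before the start and CCAAT 73 bases before it. The reverse CCAAT of CDCA8 overlaps the last base of its CHR core, and HMMR carries 2 cores end to end.

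**Figure D1:**
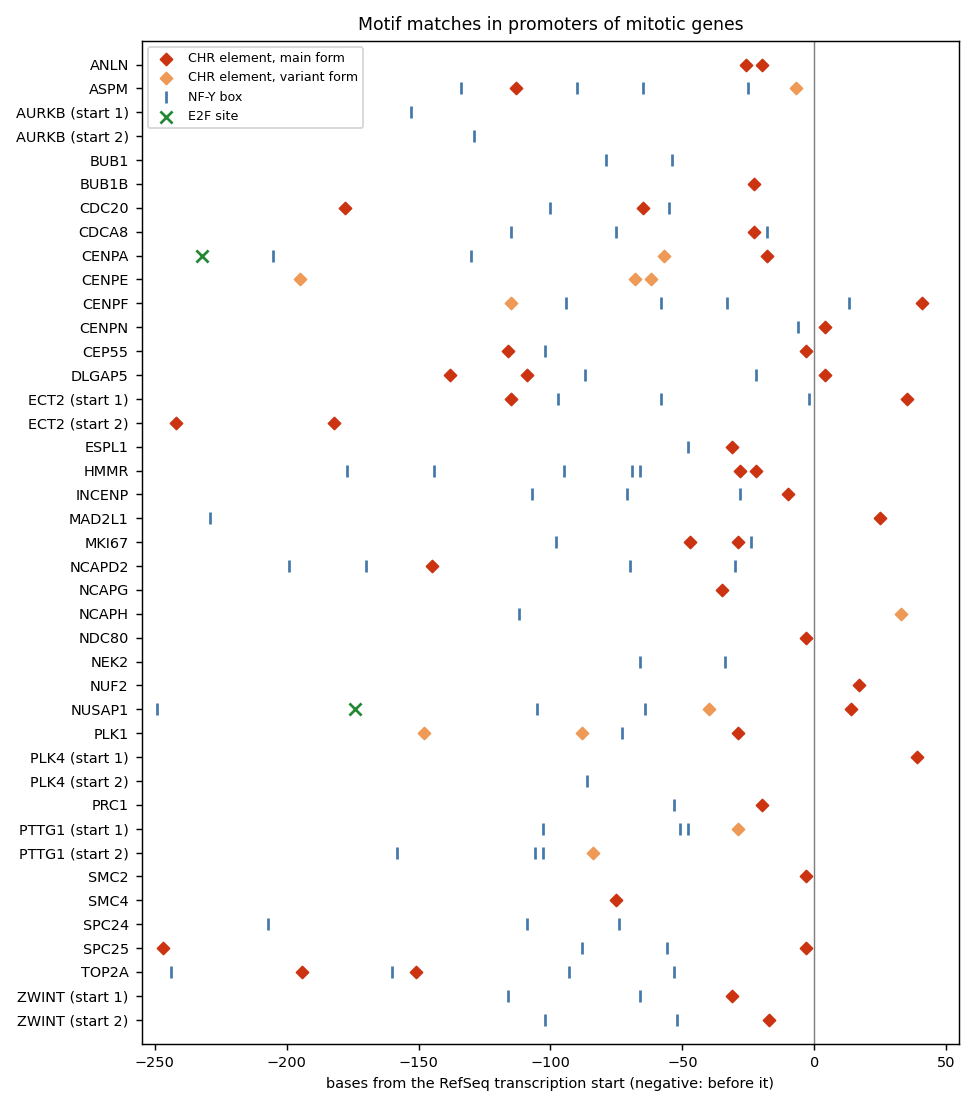
Motif matches in the promoters of the mitotic genes, by distance in bases from the RefSeq transcription start (x axis; negative is before the start), with a line for each start that holds a match. Diamonds are CHR cores (dark: TTTGAA; light: TTTAAA), bars are CCAAT boxes (NF-Y box) and crosses are E2F sites, on either strand and placed by their first base; dark diamonds lie within 50 bases of a start in 24 of 37 genes.

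Signals were read on each array for gene rows that hold 1 probe or combine several. Between 10172 and 11123 rows were detected per array, at a detection p under 0.01. Arrays of different treatments correlated at r = 0.960 to 0.973 across tested rows and estradiol arrays at 0.990 to 0.997. Vehicle arrays correlated at 0.980 to 0.992, and the lowest value was that between both arrays of vehicle culture 3. ESR2 was detected on all 8 arrays, as were VIM, CD44, LGALS1 and CAV1 among the markers of the line. Of its other markers, SPARC was on no array and EGFR on 3. Of markers of luminal breast cells, GATA3 was on all 8 and ESR1, PGR and FOXA1 on none. ERBB2 was detected on 1 array, and the rows of EGFR and ERBB2 combine probes. Of 9 markers of leukocytes, endothelium and liver, 7 were on no array, CD14 was on 4 and ALB on 1, with both rows combining probes, and their part in the results was not tested.

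Estradiol lowered the mitotic genes as a broad set. Of the 45 genes, 42 had rows detected on at least 3 arrays and were tested, and all 42 had lower means in the estradiol cultures. With limma and Benjamini-Hochberg adjustment over all 11191 rows tested, 36 were lower at an adjusted p under 0.05, 0 were higher and 6 did not pass. INCENP, among the 36, met the detection filter through its vehicle arrays alone. Among all rows tested 14.1% were called lower and 13.5% higher. Because the genes were chosen with earlier results known, these shares are a description and not a test of the set. The median change of the 42 was -0.77 on the log2 scale, against -0.02 over all rows, and 2.85% of all rows had a change at or below -0.77. The falls were moderate in size. ASPM, CENPF and BIRC5, 3 of the 42, were called lower at a fall of at least 2-fold, as were 142 of all 11191 rows tested. The changes ran from -1.22 for ASPM to -0.21 for ECT2. In 38 of the 42 every estradiol culture lay below every vehicle culture, which held for 23.0% of all rows.

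**Figure D2:**
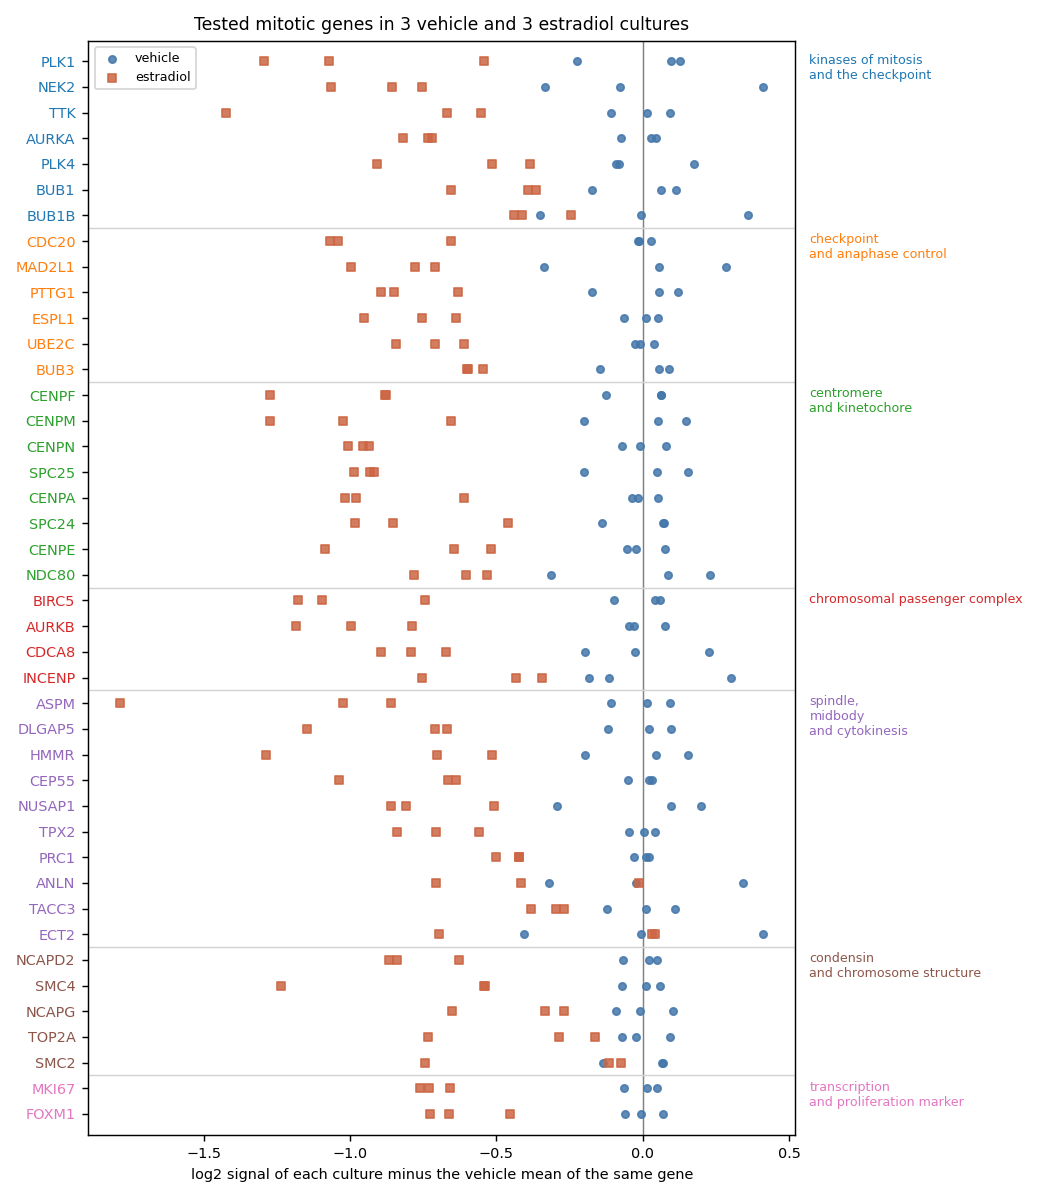
Log2 signal of each culture minus the vehicle mean of the same gene (x axis) for the 42 tested mitotic genes, grouped by role; circles are the 3 vehicle and squares the 3 estradiol cultures. The squares lie left of all circles in 38 genes and overlap them in BUB1B, ANLN, ECT2 and SMC2.

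By culture, the median gene of the set stood at -0.73, -0.72 and -0.67 from its vehicle mean in estradiol cultures 1, 2 and 3, and at -0.07, 0.02 and 0.06 in the vehicle cultures. The arrays lay on 2 chips. With the chip as a block all 42 genes were called lower, but so were 24.0% of all rows. That fit takes arrays singly, and its estimated correlation between arrays of a culture was -0.569, so that a pair of repeat arrays counted for more than 2 separate cultures would. Within chip B, of 2 vehicle and 3 estradiol arrays, 37 of the 42 and 10.6% of all rows were lower, and the median of the genes was -0.80. Chip A held 2 vehicle arrays and 1 estradiol array, so that its values are a description: 41 genes had a change below 0, with a median of -0.80. The second array of vehicle culture 3, which stood apart, lay above the first for 25 of the 42 genes, by a median of 0.11. Without that second array 37 genes and 11.6% of all rows were called lower. Scaling mattered for the split of calls over all rows. With each array centred on its median over all rows, 79.2% of calls were rises in place of 49.0%, and the median of all tested rows moved from -0.02 to 0.14. In that setting 28 of the 42 genes and 4.83% of all rows were called lower. The median of the genes was -0.58, or -0.72 relative to all rows. When all rows, and not those holding 1 probe, served to infer the background, 30 of the 42 genes and 10.1% of all rows were lower. The changes of PLK1, TTK, NEK2, ESPL1, CENPE, SPC25, HMMR and MKI67 were then between -0.28 and -0.04, a move of over 1.5 times in fold. Of these, NEK2 and HMMR no longer passed (adjusted p = 0.0851 and 0.056, limma). Calls were also lost for MAD2L1 (adjusted p = 0.0583), NDC80 (0.0702), PLK4 (0.052), NCAPG (0.055) and INCENP (0.225, all limma).

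Kinases that drive entry into mitosis and signal from unattached kinetochores were lower, with 6 of 7 called and a median of -0.76. PLK1, the polo-like kinase of centrosomes and kinetochores, had log2 signals of 7.72, 8.04 and 8.08 in the vehicle cultures and 7.40, 6.65 and 6.88 in the estradiol cultures. The groups did not overlap, although estradiol culture 1 came within 0.32 of the lowest vehicle culture. The difference was -0.97 (SE 0.18, 95% interval -1.38 to -0.57, adjusted p = 0.00298, limma), and -0.18 under the background of all rows. NEK2, which separates centrosomes, was at 7.34, 8.08 and 7.59 against 6.60, 6.81 and 6.92, a fall of 0.89 (SE 0.18, adjusted p = 0.00386, limma). TTK, the kinase known as MPS1 that recruits the other checkpoint proteins, was at 8.48, 8.60 and 8.68 in vehicle and at 7.16, 8.03 and 7.92 with estradiol, so that culture 1 was far lower than the other 2 (-0.88, SE 0.20, adjusted p = 0.00813, limma). The change of TTK was -1.48 within chip A and -0.88 within chip B. AURKA, the spindle pole kinase (-0.76), PLK4, which sets centriole number (-0.60), and the checkpoint kinase BUB1 (-0.47) also fell. The change of PLK4 was -1.24 within chip A, by its 1 estradiol array, and -0.48 within chip B. PLK4 had an adjusted p = 0.062 without vehicle culture 3 (limma), and BUB1 did not pass without vehicle culture 2, vehicle culture 3 or estradiol culture 1 (adjusted p up to 0.0779). BUB1B, which encodes the checkpoint component BubR1, had the smallest change of the kinases. Its values were 6.12, 6.83 and 6.46 in vehicle and 6.03, 6.06 and 6.23 with estradiol, and the groups overlapped (-0.37, 95% interval -0.73 to -0.00058, adjusted p = 0.126, limma). The second array of vehicle culture 3 lay below the first by 1.25 for this gene (-1.25), and its change was 0.10 within chip A and -0.87 within chip B.

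All 6 genes of the checkpoint effector and of anaphase control fell, by a median of 0.79. CDC20, the activator of the anaphase-promoting complex and the target of the checkpoint, was nearly level among vehicle cultures at 13.43, 13.39 and 13.38. With estradiol it was at 12.74, 12.33 and 12.36, all well below. CDC20 fell by 0.92, to 52.8% of vehicle (SE 0.13, adjusted p = 0.000468, limma). MAD2L1, which encodes the MAD2 protein that sequesters CDC20, fell from 9.03, 9.42 and 9.65 to 8.37, 8.59 and 8.66 (-0.83, SE 0.16, adjusted p = 0.00322, limma). PTTG1, the securin that inhibits separase until anaphase, stood at 12.11, 12.40 and 12.34 in vehicle and at 11.65, 11.44 and 11.39 with estradiol (-0.79, SE 0.12, adjusted p = 0.00096, limma). Separase itself, encoded by ESPL1, fell by 0.78, and UBE2C, the ubiquitin-conjugating enzyme that works with the anaphase-promoting complex, by 0.72. BUB3, the checkpoint adaptor, had the smallest fall of the 6, from 10.39, 10.63 and 10.60 to 9.94, 9.99 and 9.94 (-0.58, SE 0.11, adjusted p = 0.00289, limma), with close estradiol values. The rows of BUB3, MAD2L1 and UBE2C combine probes, and UBE2C was detected on 2 vehicle and 3 estradiol arrays by its combined detection p.

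Centromere and kinetochore genes had the lowest median of the role groups, at -0.91, and all 8 tested fell. CENPF, a large coiled-coil protein of the outer kinetochore, went from 9.28, 9.09 and 9.28 to 7.95, 8.34 and 8.34. This was a fall to 49.7% of vehicle (-1.01, SE 0.13, adjusted p = 0.00032, limma), and it passed in all 25 alternatives run. CENPM and CENPN belong to the inner network that binds CENP-A chromatin. CENPM was at 9.32, 9.07 and 9.41 in vehicle and at 8.61, 7.99 and 8.24 with estradiol (-0.98, SE 0.16, adjusted p = 0.00131, limma). For CENPN the cultures of a treatment were close, at 10.49, 10.64 and 10.55 against 9.60, 9.55 and 9.62, and the change of -0.97 (SE 0.10) had the smallest adjusted p of all 42 genes, 7.37e-05 (limma). CENPA, the histone H3 variant that marks the centromere, fell by 0.87, and CENPE, the kinesin that carries chromosomes to the spindle equator, by 0.75. Of the Ndc80 complex, the main microtubule coupler, SPC25 fell by 0.95, SPC24 by 0.77 and NDC80 by 0.64. NDC80 was the least changed of the kinetochore genes tested, at 7.80, 8.35 and 8.20 against 7.34, 7.51 and 7.59 (SE 0.15, adjusted p = 0.00923, limma), and vehicle culture 1 was the lowest of its group. The fourth subunit, NUF2, and ZWINT, which links the outer kinetochore to the checkpoint, were not tested because their combined rows were detected on no array. Their log2 differences were -0.43 and -0.59. Filtered on signal in place of detection p, ZWINT was lower at adjusted p = 0.0173 and NUF2 did not pass at 0.13 (limma). Without any filter neither passed (adjusted p = 0.0543 for ZWINT and 0.318 for NUF2, limma).

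The chromosomal passenger complex, which corrects faulty attachments and later moves to the midzone, had lower means in all 4 subunits. BIRC5, which encodes survivin, fell from 9.82, 9.96 and 9.97 to 9.17, 8.74 and 8.82, to 49.8% of vehicle (-1.01, SE 0.13, adjusted p = 3e-04, limma). Its kinase AURKB was at 10.72, 10.70 and 10.83 in vehicle and at 9.96, 9.57 and 9.76 with estradiol (-0.99, SE 0.12, adjusted p = 0.000227, limma). Both had their highest estradiol value in culture 1. CDCA8, which encodes borealin and whose promoter stretch is shown above, went from 9.93, 10.36 and 10.11 to 9.46, 9.34 and 9.24 (-0.79, SE 0.13, adjusted p = 0.00144, limma). INCENP, the scaffold, was dim. Its values were 6.06, 5.64 and 5.57 against 5.00, 5.32 and 5.41, and its combined row was detected on 3 vehicle arrays and on no estradiol array. The row thus met the filter of 3 arrays through the vehicle arrays alone, so that its call adds no support for a fall (-0.51, adjusted p = 0.0331, limma). The call was lost in 13 of the 24 alternatives that gave a value, among them those without vehicle culture 1, estradiol culture 1 and estradiol culture 2.

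Genes of the spindle, midbody and cytokinesis had the widest range of changes of the role groups, with 7 of 10 lower and a median of -0.71. ASPM, which acts at spindle poles and sets spindle orientation, had the largest fall of all 42 genes. It stood at 9.93, 9.80 and 10.00 in vehicle and at 8.13, 8.88 and 9.05 with estradiol, with culture 1 the lowest. The level was 42.8% of vehicle (-1.22, SE 0.20, 95% interval -1.68 to -0.77, adjusted p = 0.00151, limma), with -1.95 within chip A and -1.21 within chip B. DLGAP5, which stabilises kinetochore fibres, fell from 10.03, 10.17 and 10.25 to 9.002, 9.44 and 9.48 (-0.84, SE 0.14, adjusted p = 0.00157, limma). HMMR, a microtubule-associated protein first described as a hyaluronan receptor, went from 6.57, 6.82 and 6.93 to 5.49, 6.07 and 6.26 (-0.83, SE 0.19, adjusted p = 0.00755, limma). As with ASPM, the lowest value of both was in estradiol culture 1. CEP55, which brings the abscission machinery to the midbody, fell by 0.78, NUSAP1 by 0.73, TPX2, the activator of Aurora A, by 0.70, and PRC1, which bundles midzone microtubules, by 0.45. The 3 that did not pass were TACC3, a partner of Aurora A at the spindle (-0.32, adjusted p = 0.0535, limma), and both genes of the contractile ring. The groups of TACC3 did not overlap, and it was called lower in 13 alternatives. ANLN, which encodes the ring scaffold anillin, was at -0.38 (95% interval -0.82 to 0.06, adjusted p = 0.183, limma). ECT2, the exchange factor that activates RhoA at the ring, was at 8.35, 9.16 and 8.75 in vehicle and at 8.06, 8.79 and 8.80 with estradiol, with wide overlap (-0.21, 95% interval -0.72 to 0.31, adjusted p = 0.54, limma). For ECT2 the change was 0.04 without estradiol culture 1.

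**Figure D3:**
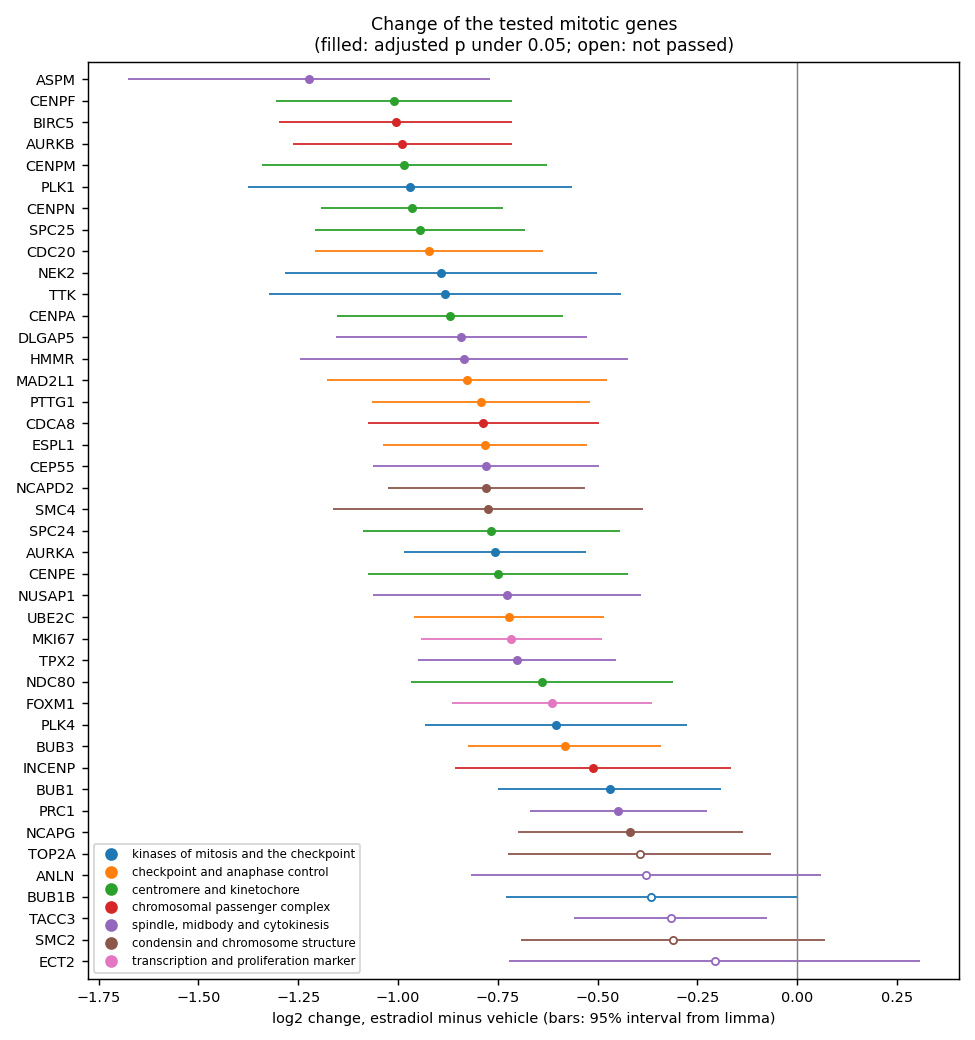
Log2 change between estradiol and vehicle (x axis; points: difference of means of 3 cultures each; bars: 95% interval from limma) for the 42 tested mitotic genes, ordered by change and coloured by role. Filled points passed an adjusted p under 0.05 (36 genes), and the 6 open points, from TOP2A to ECT2, did not.

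Condensin and chromosome structure genes were the least changed group, with 3 of 5 lower and a median of -0.42. NCAPD2, a regulatory subunit of condensin I, fell from 9.11, 8.99 and 9.08 to 8.43, 8.22 and 8.20 (-0.78, SE 0.11, adjusted p = 0.000541, limma). SMC4, an ATPase of the condensin core, went from 8.29, 8.20 and 8.33 to 7.04, 7.73 and 7.73 (-0.77, SE 0.18, adjusted p = 0.00827, limma). Its partner SMC2 was at 6.84, 7.04 and 7.04 against 6.23, 6.86 and 6.90, and the groups overlapped (-0.31, 95% interval -0.69 to 0.07, adjusted p = 0.206, limma). In both genes of the core, estradiol culture 1 was the lowest. NCAPG was lower at 9.32, 9.70 and 9.64 against 10.07, 9.88 and 9.96 (-0.42, SE 0.13, adjusted p = 0.0328, limma), a call lost in 11 of 25 alternatives, those without vehicle cultures 1 and 3 and estradiol cultures 1 and 3 among them. TOP2A, the topoisomerase that untangles sister DNA, had groups that did not overlap but did not pass (-0.39, adjusted p = 0.073, limma), and it was called lower in 9 alternatives. NCAPH, the kleisin of condensin I, was detected on no array, and its row gives no comparison.

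FOXM1, the forkhead factor that acts on promoters of this kind, was lower as well. Its values were 7.99, 7.94 and 8.07 in vehicle and 7.54, 7.27 and 7.33 with estradiol, without overlap (-0.61, SE 0.11, adjusted p = 0.00259, limma). The change of FOXM1 was -0.14 under the background of all rows. With arrays centred on the median of all rows FOXM1 did not pass (adjusted p = 0.0744, limma). MKI67, which encodes the Ki-67 antigen of dividing cells, went from 6.05, 5.98 and 6.09 to 5.31, 5.28 and 5.38 (-0.72, SE 0.10, adjusted p = 0.000544, limma), and was detected on 4 vehicle and 3 estradiol arrays. MKI67 was dim, and its change was -0.04 under the background of all rows.

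The CHR core in its main form, TTTGAA, was also set beside the size of the fall. The 27 tested genes with TTTGAA in a promoter had a median change of -0.78, and the 7 with a promoter but without it had a median of -0.77, 6 of them called lower. CENPE and PTTG1, among the 7, hold the variant TTTAAA, so that the 7 are not a group without any CHR core. The difference between these medians was not tested, and 7 genes are few.

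Related genes were counted from lists of the same machinery, with 14.1% of all tested rows called lower as the background. The mitotic kinesins came nearest, with 7 of 10 tested lower, 0 higher and a median of -0.68. KIF2C, a microtubule depolymerase (-1.24), and KIF14, a cytokinesis motor (-1.14), fell most. KIF23 (-0.83) and KIF20A (-0.74) fell as well, and KIFC1 was at -0.24 (adjusted p = 0.479, limma). Of the other centromere and kinetochore genes, 9 of 20 tested were lower, 0 were higher and 11 did not pass, with a median of -0.39. OIP5, a licensing factor for CENP-A loading (-0.91), SKA3 (-0.80), CENPU (-0.77) and CENPK (-0.91) fell, whereas DSN1 of the Mis12 complex was at -0.06. Among the other checkpoint genes 5 of 9 were lower and 0 higher, including TRIP13, the ATPase that takes MAD2 complexes apart (-0.82), SPDL1 (-0.87), HASPIN (-0.67) and KNTC1 (-0.59), while ZW10 was at -0.13.

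**Figure D4:**
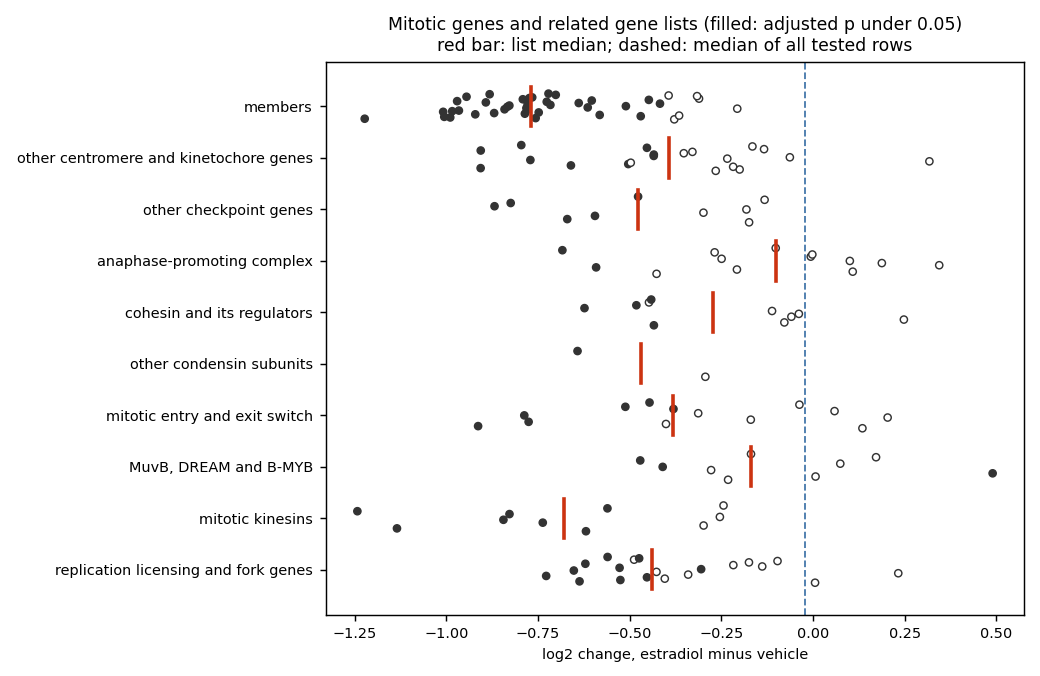
Log2 change between estradiol and vehicle (x axis) of each tested gene in the mitotic set and in 9 related lists; filled points passed an adjusted p under 0.05, red bars are list medians and the dashed line is the median of all tested rows (-0.02). The mitotic set (median -0.77) and the mitotic kinesins (-0.68) lie farthest left, and the anaphase-promoting complex (-0.10) lies nearest the dashed line.

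The anaphase-promoting complex, whose activator CDC20 and partner UBE2C fell, was counted together with regulators such as FBXO5 and FZR1. Of the 13 tested genes of that list 2 were lower and 0 higher, with a median of -0.10. The 2 were the subunit gene ANAPC15 (-0.59) and FBXO5, which encodes the inhibitor EMI1 (-0.68). The core subunit CDC23 was at -0.0020 (adjusted p = 0.992, limma), ANAPC10 at -0.43 and ANAPC16 at 0.34, and none of these 3 passed. In the list of cohesin and its regulators, 4 of 10 were lower and 0 higher, namely SGO1, the shugoshin that guards centromeric cohesin (-0.62), SMC1A (-0.48), STAG1 (-0.44) and CDCA5, which encodes sororin (-0.43), and PDS5B was at -0.04. NCAPG2 of condensin II fell by 0.64, and NCAPD3 was at -0.29 (adjusted p = 0.0792, limma). Of the genes that switch cells into and out of mitosis, 6 of 13 were lower and 0 higher, among them CCNA2 (-0.91), CCNB2 (-0.78), CDC25C (-0.79) and WEE1 (-0.45), with PPP2R2A, a regulatory subunit of the phosphatase PP2A, at -0.04. CDK1 matched no row.

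Of the subunits of MuvB and DREAM, the complexes that act on CHR elements, 2 of 9 were lower, 1 was higher and 6 did not pass, shares near those of all rows (14.1% lower and 13.5% higher). RBBP4 (-0.47) and LIN54, the subunit that contacts the CHR (-0.41), were called lower, and E2F5 was at 0.01. LIN37 was called higher at 0.49, but on the second array of vehicle culture 3 it lay at 5.41 against 6.67 on the first, and without that array it was at 0.28 and did not pass (adjusted p = 0.136, limma). Replication licensing and fork genes, which are expressed earlier in the cycle, had 10 of 20 lower, 0 higher and a median of -0.44. MCM7 (-0.62), GINS2 (-0.73), MCM2 (-0.65) and MCM4 (-0.53) fell, and CCNE1, which encodes cyclin E1, was at 0.01. Without the same array the counts lower were 6 of 20 for the other centromere and kinetochore genes, 4 of 13 for the entry and exit switch, 3 of 10 for cohesin and 9 of 20 for replication, and those of the other 5 lists did not change. WEE1 (-0.31, adjusted p = 0.156) and SMC1A (-0.31, adjusted p = 0.199) then did not pass (limma).

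The core TTTGAA was also counted in the promoters of the related lists, beside 18.2% of all genes and 12.8% of those with a tested row. It was in 9 of 12 mitotic kinesins and in both other condensin subunits with a promoter in the table. Shares between these and the background were 4 of 10 for MuvB and DREAM, 3 of 8 for the other checkpoint genes, 4 of 12 for the entry and exit switch, 5 of 18 for the anaphase-promoting complex and 5 of 19 for the other centromere and kinetochore genes. It was in 2 of 11 cohesin genes and in 0 of 20 replication genes.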

How the data were processed

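Transcript levels were measured on 8 arrays of 6 cultures. The authors deposited 2 tables. The first was deposited without normalization between arrays and, per the file headers, pairs each array's signal intensity with its detection p-value, by gene row. Biotinylated cRNA was made from Trizol RNA, per the labels' protocols, and scanner software and probe summary are not given in the sources used here. The second holds intensities normalized by the authors by a method not given there, and served as an alternative. Blank rows (3266) were left out. Rows whose detection p-values were whole multiples of 1 part in 770 on all arrays (within 0.002 of a whole number) were taken to hold 1 probe (24130) and the rest to combine several (7282).

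Signals were background-corrected with normexp in limma 3.58.1 (R 4.3.3), the background being inferred from the rows holding 1 probe. An offset of 16 was added, which shrinks changes of dim genes, followed by quantile normalization and log2. Arrays of a culture were averaged following the titles, which place the estradiol repeat in culture 1, whereas the series text names replicate 3. Rows with a detection p under 0.01 on at least 3 arrays (11191) were fitted with lmFit and eBayes over 3 and 3 cultures, and p-values were adjusted by Benjamini-Hochberg. The number of arrays limits the precision.

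The genes and lists were chosen with earlier results of these data known, so that no list was tested as a set. In each role the text gives every culture for the 3 largest changes and the smallest; of each related list it names up to 4 genes with the smallest p and the one nearest 0. Older symbols were updated through the RefSeq gene table of GRCh38.p14. On simulated data for this comparison (11191 rows, 50 changed per size) the fit found 40% of those shifted by 0.5 (log2), 66% at 0.75, 84% at 1 and 100% at 2, with 6.45% false among its calls. Far fewer rows were changed there than the 27.6% called in the real data. The adjusted p depends on that share, so that these rates need not carry over. Alternatives covered repeat arrays, replicate and chip blocks, background, scaling, filter, variance model, array weights and each culture left out.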

Additional observations from a re-analysis of the deposited data

How the results depend on the processing

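Over 25 alternatives, the count of mitotic genes called lower stayed within 1.5 times of 36, from 28 to 42, except within chip A alone, where 7 were called in a fit that assumes its 1 estradiol array to vary like the vehicle arrays, and 0 were called higher in any. Of 1044 values of single genes, 941 kept direction and side of the threshold, 68 no longer passed, 32 passed newly and 3 reversed: ECT2 was at 0.0442 without the first arrays of the repeated cultures and at 0.0378 without estradiol culture 1 (-0.41 to 0.0378 over the cultures left out), and BUB1B at 0.0977 within chip A, with the cause not tested. CENPF, ASPM, TTK and DLGAP5 were called in every alternative. That list turns on chip A alone, with its 1 estradiol array, and does not rank the genes by firmness. CENPN, for example, lost its call only there, with a change of -1.01. Leaving out each culture gave 33 to 35 genes lower, 920 to 1692 rows lower and 1035 to 1687 higher (1576 and 1516 with all), the rows lower falling to 920 without vehicle culture 3, 1011 without estradiol culture 2 and 950 without estradiol culture 3, in fits with fewer samples. With the replicate block 37 genes, 1677 rows lower and 1593 higher were called. Deviations of same-numbered cultures correlated at 0.133, 0.133 and -0.0328, against -0.163 to 0.0895 for the other pairs. With 3 cultures per treatment these values cannot decide whether the numbers pair cultures. The median of the genes was -0.638 without background correction, -0.637 in the table the authors normalized, -0.479 with the background inferred from all rows and -0.581 with arrays centred on the median of all rows, where 540 rows were lower and 2052 higher. Rows lower and higher were 2685 and 2374 under the chip block, 127 and 277 on chip A, and 3421 and 3078 with array weights. Dim rows are limited by signal over background, as for NCAPH, which was detected on no array. NUF2 and ZWINT were also detected on no array by the detection p of their combined rows, but both passed the filter on signal. The fit without the second array of vehicle culture 3 (37 genes, 1300 rows lower and 1348 higher), its counts for the related lists, and the chip B values of estradiol culture 1 were chosen after seeing the data.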

Other observations

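The order of the estradiol cultures differed among the mitotic genes. Of the 42 tested, 24 had their lowest estradiol value in culture 1, 14 had their highest there and 4 lay between, against 37.4% of all tested rows lowest and 42.1% highest in that culture. Culture 1 is the estradiol culture with an array on each chip, and its chip B array is the repeat that the series text places in replicate 3. By that array alone, with all 3 cultures on chip B, 23 genes were lowest, 17 highest and 2 between, against 39.2% and 41.5% of all tested rows. With both arrays, ASPM, TTK, ECT2, SMC4, HMMR and SMC2 were 0.65 to 0.84 lower (log2) in culture 1 than in the mean of cultures 2 and 3. At the other end, PLK1 was 0.64 higher in culture 1, CENPM 0.49, SPC24 0.46 and CDC20 0.40. On chip B alone the gap was -0.82 for TTK, -0.78 for SMC4, -0.69 for ASPM, -0.60 for SMC2, -0.59 for HMMR and -0.41 for ECT2, and 0.56 for PLK1, 0.43 for CENPM, 0.45 for SPC24 and 0.44 for CDC20. The spread between cultures was wider with estradiol, with a median SD of 0.20 against 0.11 in vehicle and a larger SD in 28 of the 42 genes, whereas over all tested rows the median SD was 0.13 with estradiol and 0.14 in vehicle. No genes that behave in these ways were tested as a group, and the cause was not tested.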
